A study of Mus musculus with 24 samples.

Results

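The collagen gene family was followed in 4 derivatives of EO771 (E0771 in the labels), a mouse mammary carcinoma line from a spontaneous tumour of a C57BL/6 mouse. Members were all genes whose symbol has the form of a collagen chain (Col, a type number, a and a chain number) in the count table of batch 2, matched to batch 1 by Ensembl identifier. The rule found 22 collagen genes among the 13915 genes of that table. Every derivative carried the retroviral vector PLNCX2 with the tdTomato reporter and was kept in culture. X2 was the vector control, and CCR7 had in addition received a cDNA of the mouse chemokine receptor Ccr7. Podoplanin (PDPN) had arisen spontaneously on part of the Ccr7-transduced cells, which were sorted into CCR7-PDPN, with a high surface level of podoplanin, and CCR7, the podoplanin-negative fraction. X2-PDPN was sorted for high podoplanin from the vector control, while the sources used here describe no podoplanin sort for X2. There was no clonal selection, so each derivative is 1 population. CCR7 was sequenced in batch 1 and X2-PDPN in batch 2, each next to libraries of X2 and of CCR7-PDPN, with 4 libraries per derivative and batch. These 4 libraries are described as technical replicates. The p-values thus measure the spread between libraries of 1 population and not between independently made populations.

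Collagens are secreted or membrane-bound proteins whose chains wind into a triple helix in the endoplasmic reticulum before export. Fibrillar collagens assemble into the tensile fibres of connective tissue, and type IV chains form the sheet of the basement membrane under epithelia. Type VI chains build beaded microfibrils around cells. The fibril-associated collagens with interrupted triple helices (FACIT) sit on the surface of fibrils, and transmembrane collagens stay anchored in the plasma membrane. In mammary tumours most fibrillar collagen is laid down by fibroblasts, while carcinoma cells contribute mainly basement membrane and pericellular chains. Because a helix needs a fixed set of chains, the levels of partner chains are given side by side.

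Promoters of 19 of the 22 genes were found in RefSeq (GRCm38.p6), 22 promoters in all since some genes have more than 1 start. The stretches of 250 bases before the first annotated start of Col6a3, Col9a1 and Col3a1 are shown, because these 3 genes had the largest rises among the collagens. Each is written 5′ to 3′ on the strand of its gene, and capitals mark matches, on either strand, to any of 5 motifs that were searched. These were the TATA box (TATAAA), the CCAAT box (CCAAT), the GC box (GGGCGG), the AP-1 site (TGANTCA) and the core of a SOX site (AACAAT). The Col6a3 stretch lies at chr1:90843972-90844221 on the minus strand, the Col9a1 stretch at chr1:24177360-24177609 on the plus strand and the Col3a1 stretch at chr1:45311288-45311537 on the plus strand.
Col6a3: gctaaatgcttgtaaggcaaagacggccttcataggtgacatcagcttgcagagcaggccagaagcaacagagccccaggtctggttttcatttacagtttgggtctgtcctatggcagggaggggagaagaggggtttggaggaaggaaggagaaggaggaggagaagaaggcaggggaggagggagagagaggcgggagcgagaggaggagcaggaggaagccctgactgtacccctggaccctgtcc
Col9a1: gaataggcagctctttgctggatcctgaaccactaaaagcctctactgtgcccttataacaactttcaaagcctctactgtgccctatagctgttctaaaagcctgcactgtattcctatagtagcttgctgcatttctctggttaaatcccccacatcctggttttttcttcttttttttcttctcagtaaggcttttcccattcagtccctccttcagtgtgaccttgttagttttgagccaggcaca
Col3a1: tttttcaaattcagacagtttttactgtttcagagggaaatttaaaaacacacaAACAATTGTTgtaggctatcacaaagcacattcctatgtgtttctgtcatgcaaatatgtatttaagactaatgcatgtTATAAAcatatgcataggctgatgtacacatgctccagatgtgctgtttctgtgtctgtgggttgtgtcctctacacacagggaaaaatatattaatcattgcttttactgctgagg
The stretches shown for Col6a3 and Col9a1 held none of the 5 motifs. Col9a1 has a second annotated start at 24195203, and the 250 bases before that one (chr1:24194953-24195202) held a CCAAT box 18 bases from the start, at 56% GC. The Col3a1 stretch held a TATA box 117 bases before the start, and SOX cores on both strands that overlap each other, 192 and 196 bases before it. A TATA box was present in 12.4% of all 32851 promoters of that table and in 4 of the 22 collagen promoters, and a SOX core in 9.42% and in 1. GC boxes were present in 32.7% of all promoters and in 10 of the 22, CCAAT boxes in 33.8% and in 8, and AP-1 sites in 6.75% and in 1. Base composition also differed among the 3 stretches. Col3a1 had 35.2% GC and no CpG, Col9a1 43.6% and none, and Col6a3 57.2% with 3 CpG, against medians of 52.4% and 6 over all promoters. A match is only a run of letters, and its absence says nothing about the factor.

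The libraries held 22275468 to 35721027 counts, so that 3 counts, the number a total of 0 still allows, corresponded to between 0.0840 and 0.135 CPM (counts scaled to the total of the library). Both sorted and transduced genes followed the labels. Ccr7 stood at 0.168 to 0.951 CPM in X2 and X2-PDPN libraries and at 2740.3 to 3379 CPM in CCR7 and CCR7-PDPN libraries. Pdpn, the gene of podoplanin, stood at no more than 0.267 CPM in X2, at 0.300 to 0.625 CPM in CCR7 and at 23.3 to 26.7 CPM in both podoplanin-high derivatives. Of 12 mammary epithelial markers, 7 had at most 3 reads in any library of batch 1, Epcam, Krt5, Krt14 and Krt19 among them, whereas Krt8 was abundant, with group means of 425 to 561 TPM (counts per gene length, scaled to the total of the library). The 2 that could be tested were Krt8 and Grhl2, of which Grhl2 fell in CCR7-PDPN against X2 (log2 fold change -1.38 ± 0.23 in batch 1 and -1.41 ± 0.23 in batch 2) at levels under 1 TPM. Krt8 was higher there, past the adjusted p but without a call, in both batches. These 2 genes summed to 443 TPM on average for X2 and 562 for CCR7-PDPN of batch 1. In batch 2 the sums were 426 and 556 TPM. Of 12 fibroblast markers, 7 had at most 3 reads in any library of batch 1, Dcn, Lum, Postn and Fap among them. The summed level of the fibroblast list was 105 to 107 TPM for X2, 105 to 124 for CCR7 and 94.7 to 103 for CCR7-PDPN of batch 1, and 106 to 109 for X2, 105 to 113 for X2-PDPN and 97.3 to 105 for CCR7-PDPN of batch 2. None of the 9 leukocyte markers was listed in both tables, and 5 of them, Adgre1, Cd3e and Itgam included, had at most 3 reads in any library of batch 1.

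EO771 cells had a collagen profile built on type IV, type V, type VI, type XVI and type XVIII chains, with little type I or type III. In TPM, which divides by gene length and so allows levels of different genes to be compared, 7 genes (Col4a1, Col6a1, Col5a1, Col4a2, Col18a1, Col16a1 and Col5a3) had a mean above 40 in all 6 groups. The highest in X2 was Col4a1 with 370.2 ± 4.6 TPM (SD, n = 4) in batch 1, followed by Col6a1 with 251 ± 4.9, Col5a1 with 195 ± 6.0 and Col4a2 with 174 ± 3.1. Their SDs did not bring these neighbours in the order into overlap. Col1a1, the main chain of type I collagen, reached only 1.02 TPM in X2, and Col3a1, the only chain of type III, 1.91 TPM.
The summed level of the 22 genes was 1353 ± 8.0 TPM for X2, 1498 ± 34 for CCR7 and 1765 ± 76 for CCR7-PDPN of batch 1, and the libraries of these 3 groups did not overlap. In batch 2 it was 1328 ± 21 TPM for X2, 2049 ± 40 for X2-PDPN and 1776 ± 72 for CCR7-PDPN, again without overlap, with X2-PDPN highest. Col6a1 alone supplied 18.5% of the family's TPM in X2 and 24.5% in CCR7-PDPN of batch 1. Type VI chains together went from 21.1% of the collagen TPM in X2 to 25.0% for CCR7 and 31.7% for CCR7-PDPN of batch 1, and the type IV pair went from 40.2% to 31.7% and 26.9%. In batch 2 the type VI share was 21.0% for X2, 29.3% for X2-PDPN and 31.4% for CCR7-PDPN, and the type IV share 40.4%, 32.1% and 27.0%. No test was run on these sums and shares.

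Counts per gene were compared within a batch with edgeR's quasi-likelihood test, and a gene was said to rise or fall where the Benjamini-Hochberg adjusted p over all genes was under 0.05 and the absolute log2 fold change above 1. CCR7 against X2 addresses the transduced receptor, but CCR7 was also sorted as podoplanin-negative. An effect of Ccr7 cannot be told apart there from one of the sort. Every comparison also sets 1 population against another, so other differences between the populations cannot be told apart from Ccr7 or podoplanin. In CCR7 against X2, 4 of the 22 collagens rose (Col6a3, Col9a1, Col3a1 and Col24a1) and 1 fell (Col15a1). Of all 13261 genes tested, 6.48% moved in either direction, 3.30% up and 3.18% down. In CCR7-PDPN against CCR7, which addresses podoplanin among Ccr7-transduced cells, 1 rose (Col6a3) and 3 fell (Col9a1, Col13a1 and Col15a1), against 3.27% of all genes (0.664% up and 2.60% down). Col15a1 could be tested there with the X2 libraries in the fit, but not with these 2 groups alone. In CCR7-PDPN against X2 of batch 1, 4 rose (Col6a3, Col3a1, Col6a2 and Col11a2) and 2 fell (Col13a1 and Col15a1), against 9.45% of all genes (4.09% up and 5.36% down). In batch 2, X2-PDPN against X2 addresses podoplanin without Ccr7. Here 6 collagens rose (Col9a1, Col6a3, Col3a1, Col6a2, Col1a1 and Col24a1) and 1 fell (Col13a1), against 5.05% of all 13314 genes tested (3.51% up and 1.55% down). CCR7-PDPN against X2 in batch 2 gave 4 rises and 2 falls, in the same 6 genes as in batch 1, against 9.63% of all genes (3.96% up and 5.67% down). CCR7-PDPN against X2-PDPN, which addresses Ccr7 among podoplanin-high cells, gave 3 rises (Col6a3, Col11a2 and Col20a1) and 3 falls (Col9a1, Col1a1 and Col15a1), against 9.16% of all genes (2.76% up and 6.40% down).
As shares of the family, the 6 counts were 22.7%, 18.2%, 27.3%, 31.8%, 27.3% and 27.3% of the 22 genes in that order. The median log2 fold change of the 22 collagens was 0.31 in CCR7 against X2, 0.088 in CCR7-PDPN against CCR7, 0.46 in CCR7-PDPN against X2 of batch 1, 0.45 in X2-PDPN against X2, 0.53 in CCR7-PDPN against X2 of batch 2 and -0.13 in CCR7-PDPN against X2-PDPN. Comparisons within a batch share libraries and are not independent of each other. The same median over all genes tested stayed between -0.0033 and 0.0033. With the adjusted p alone, 16 collagens passed in CCR7 against X2 (49.3% of all genes), 11 in CCR7-PDPN against CCR7 (41.6%), 17 in CCR7-PDPN against X2 of batch 1 (60.9%), 16 in X2-PDPN against X2 (56.8%), 18 in CCR7-PDPN against X2 of batch 2 (64.8%) and 16 in CCR7-PDPN against X2-PDPN (63.2%). The spread between technical replicates was small, so that fold changes well under the threshold also passed the adjusted p.

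**Figure D1:**
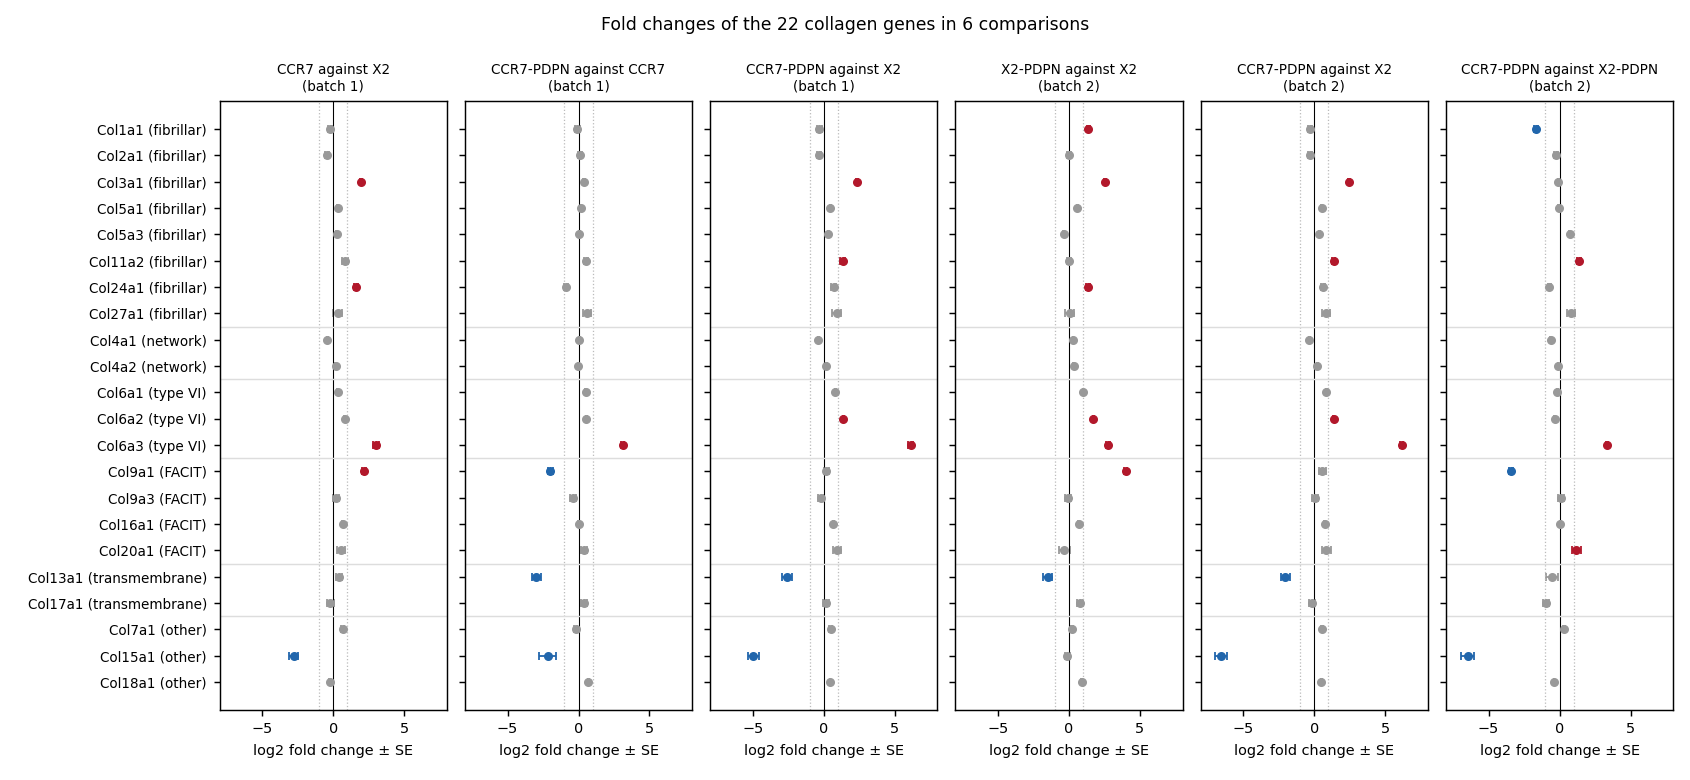
Log2 fold change (horizontal axis) of each of the 22 collagen genes, ordered by class, in the 6 comparisons, with bars of 1 standard error from edgeR. Red points rose and blue points fell past both thresholds (dotted lines at 1 and -1 for the fold change), and grey points did not; Col6a3 reaches 6.15 and Col15a1 -6.60 in CCR7-PDPN against X2 of batch 2.

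Col6a3 encodes the largest chain of type VI collagen, which has long arrays of von Willebrand factor A domains, and it had the largest rise of any collagen. The gene (ENSMUSG00000048126) lies on chromosome 1 of GRCm38, 90765923 to 90843971, on the minus strand. In batch 1 its levels were 0.534, 0.561, 0.685 and 0.598 TPM in the 4 X2 libraries, 3.79, 6.04, 4.37 and 5.25 TPM in CCR7 and 42.3, 42.0, 44.5 and 35.1 TPM in CCR7-PDPN. In batch 2 they were 0.690, 0.675, 0.524 and 0.575 TPM in X2, 4.20, 3.65, 4.39 and 4.69 TPM in X2-PDPN and 43.7, 43.0, 46.9 and 37.8 TPM in CCR7-PDPN. The 3 derivatives of a batch did not overlap, and CCR7-PDPN stood far above the rest in both batches.
Against X2, Col6a3 rose 8.03-fold in CCR7 (log2 fold change 3.01 ± 0.20, SE, n = 4 against 4, edgeR adjusted p = 2.6e-07) and 6.82-fold in X2-PDPN (2.77 ± 0.14, edgeR adjusted p = 1.6e-10). CCR7-PDPN cells carried a further 8.65-fold over CCR7 (3.11 ± 0.12) and 10.4-fold over X2-PDPN (3.38 ± 0.072), with edgeR adjusted p = 6.5e-09 and 1.8e-15. The whole difference between CCR7-PDPN and X2 was 69.5-fold in batch 1 and 70.8-fold in batch 2. In these bulk samples a larger share of cells with the transcript and more transcript per cell cannot be told apart, here or for any other gene.

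Col6a2, another chain of type VI collagen, rose against X2 in both podoplanin-high derivatives. The gene lies on chromosome 10 of GRCm38, 76595762 to 76623630, on the minus strand. Batch 1 gave 33.3, 31.9, 33.9 and 34.7 TPM in X2, 59.6, 62.0, 56.7 and 57.3 TPM in CCR7 and 86.6, 89.1, 84.3 and 80.3 TPM in CCR7-PDPN. Batch 2 gave 32.8, 33.9, 34.1 and 34.8 TPM in X2, 111, 109, 106 and 115 TPM in X2-PDPN and 88.5, 89.2, 84.5 and 82.2 TPM in CCR7-PDPN. Again no library of one derivative overlapped another within a batch, but the order differed from that of Col6a3, since X2-PDPN and not CCR7-PDPN was highest in batch 2.
Col6a2 rose 2.58-fold in CCR7-PDPN against X2 (log2 fold change 1.37 ± 0.039, edgeR adjusted p = 1.9e-17) and 3.24-fold in X2-PDPN against X2 (1.70 ± 0.032, edgeR adjusted p = 9.9e-37). Its log2 fold changes of 0.81 in CCR7 against X2 and 0.56 in CCR7-PDPN against CCR7 passed the adjusted p but not the fold threshold. Col6a1, the most abundant of the 3 chains, went from 251 ± 4.9 TPM (SD, n = 4) for X2 to 311 ± 11 for CCR7 and 433 ± 16 for CCR7-PDPN, and from 245 ± 5.5 to 486 ± 11 for X2-PDPN and 429 ± 21 for CCR7-PDPN. Its largest log2 fold change, 0.98 in X2-PDPN against X2, was just short of the threshold.
The type VI chains are thought to assemble in equal amounts, and their transcripts did not move in step. The size of a TPM ratio depends on the gene lengths used, 4380 bases for Col6a1 and 8326 for Col6a2. Its change between groups does not. The ratio of Col6a1 to Col6a2 TPM was 7.51 ± 0.37 (SD, n = 4) for X2, 5.27 ± 0.16 for CCR7 and 5.09 ± 0.087 for CCR7-PDPN of batch 1, and 7.22 ± 0.26 for X2, 4.40 ± 0.11 for X2-PDPN and 4.99 ± 0.12 for CCR7-PDPN of batch 2. The ratio of Col6a3 to Col6a2 was 0.0178 ± 0.0018 for X2, 0.0824 ± 0.015 for CCR7 and 0.481 ± 0.037 for CCR7-PDPN of batch 1. In batch 2 it was 0.0182 ± 0.0027 for X2, 0.0383 ± 0.0036 for X2-PDPN and 0.498 ± 0.041 for CCR7-PDPN. Col6a3 was thus the scarcest of the 3 transcripts in every group, and came nearest to its partners in CCR7-PDPN. Of the chains that can stand in for it, Col6a4, Col6a5 and Col6a6 had at most 5 reads in any library of batch 1.

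**Figure D2:**
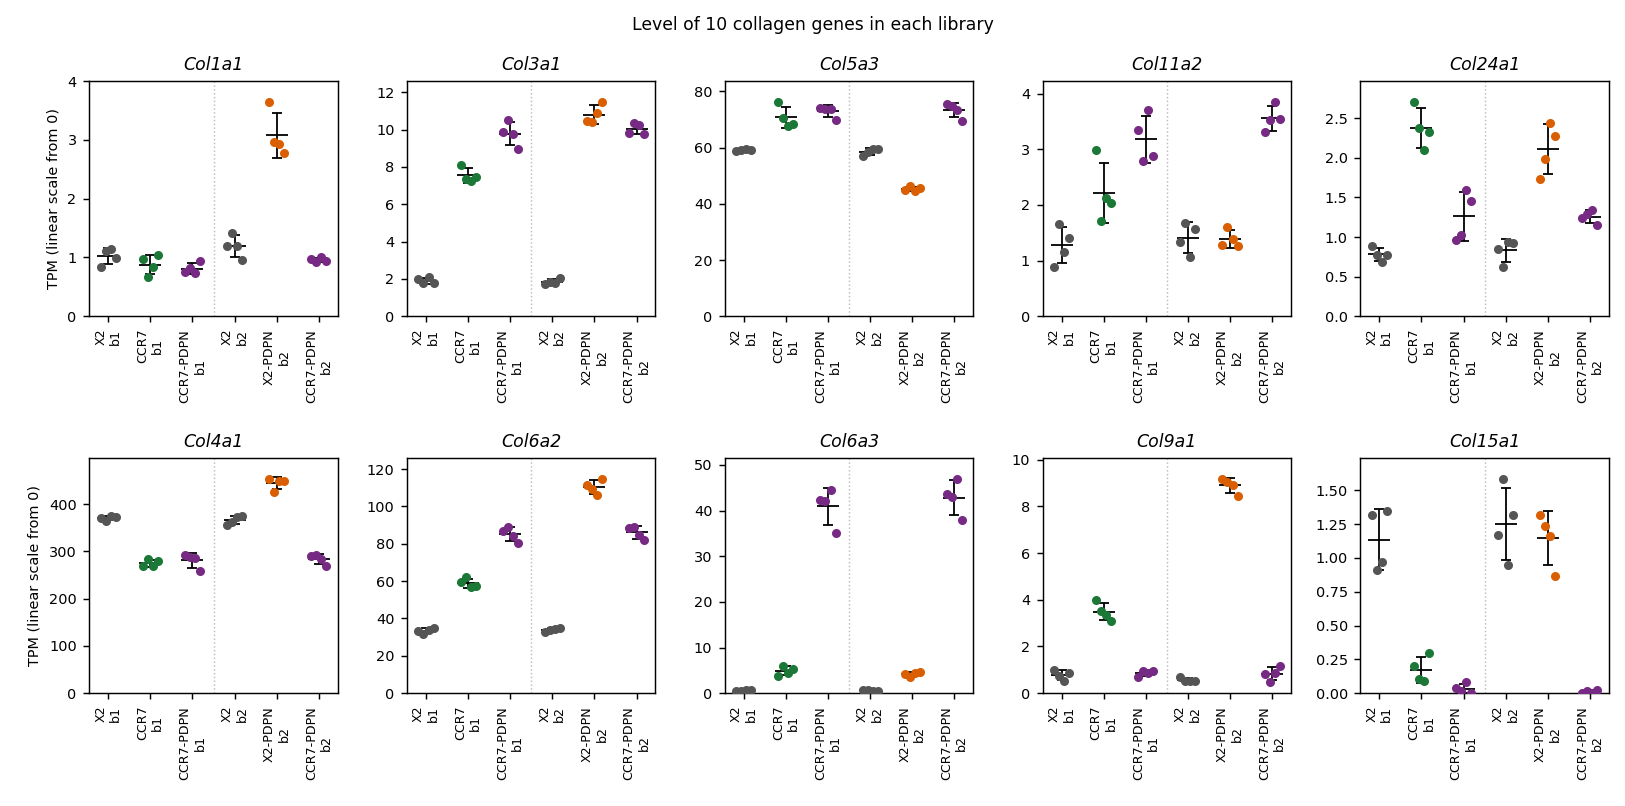
TPM (vertical axes, linear from 0) of 10 collagen genes in each library, with the group mean (horizontal bar) and SD (error bar, n = 4). Groups are ordered by batch (b1 and b2, split by the dotted line); the CCR7-PDPN points of Col6a3 lie near 41.0 and 42.9 TPM on average, and the X2-PDPN points of Col9a1 near 8.90 TPM.

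Col9a1, the first chain of the FACIT collagen IX, best known from cartilage and the eye, rose against X2 in CCR7 and in X2-PDPN and fell in CCR7-PDPN against either of them. The gene (ENSMUSG00000026147) lies on chromosome 1 of GRCm38, 24177610 to 24252684, on the plus strand. In batch 1 its levels were 0.978, 0.739, 0.516 and 0.882 TPM in X2, 3.98, 3.52, 3.36 and 3.10 TPM in CCR7 and 0.694, 0.961, 0.875 and 0.951 TPM in CCR7-PDPN. In batch 2 they were 0.679, 0.522, 0.509 and 0.533 TPM in X2, 9.17, 9.04, 8.93 and 8.46 TPM in X2-PDPN and 0.834, 0.468, 0.881 and 1.14 TPM in CCR7-PDPN. CCR7 and X2-PDPN each stood clear of the other groups of their batch, while X2 and CCR7-PDPN overlapped in both batches.
Col9a1 rose 4.50-fold in CCR7 against X2 (log2 fold change 2.17 ± 0.16, edgeR adjusted p = 2.7e-10) and 15.8-fold in X2-PDPN against X2 (3.98 ± 0.13, edgeR adjusted p = 1.2e-27). In CCR7-PDPN it was 3.95-fold lower than in CCR7 (-1.98 ± 0.15, edgeR adjusted p = 2.3e-09) and 10.6-fold lower than in X2-PDPN (-3.41 ± 0.12, edgeR adjusted p = 5.6e-27). The remaining difference between CCR7-PDPN and X2 was 0.19 ± 0.20 in batch 1 (edgeR adjusted p = 0.43) and 0.57 ± 0.22 in batch 2 (edgeR adjusted p = 0.019), under the fold threshold in both.
No call was made for the partners of Col9a1 in collagen IX. Col9a3 stayed between 0.967 and 1.27 TPM on average in the 6 groups, and none of its 6 fold changes passed the adjusted p. Col9a2 had at most 3 reads in any library of batch 1. Beside this, 5 of 10 chondrocyte markers, Acan and Hapln1 among them, had at most 3 reads in any library of batch 1. Batch 1 held no X2-PDPN library, so these counts, like those of Col9a2, do not cover that derivative. The chondrocyte list summed to 44.7 to 51.2 TPM for X2, 36.7 to 38.6 for CCR7, 41.7 to 47.3 for CCR7-PDPN of batch 1, 47.4 to 54.6 for X2, 47.7 to 51.5 for X2-PDPN and 41.7 to 48.3 for CCR7-PDPN of batch 2. Sox9, a transcription factor of the cartilage lineage that many carcinoma cells also use, made up most of that sum, with group means of 35.1 to 47.0 TPM. Its log2 fold change in X2-PDPN against X2 was slightly negative (-0.11 ± 0.045), and Matn4, a matrilin of cartilage matrix, rose there (1.05 ± 0.12, edgeR adjusted p = 7.1e-10) and fell in CCR7 against X2 (-2.67 ± 0.23, edgeR adjusted p = 3.2e-09).
Col16a1, by far the most abundant FACIT chain, was at 119 ± 2.4 TPM (SD, n = 4) for X2 of batch 1 and 116 ± 6.0 for X2 of batch 2. It was at 186 to 189 TPM on average in the 4 groups with Ccr7 or podoplanin. All libraries of those groups were above the X2 libraries of their batch. Its log2 fold changes against X2 were 0.67 in CCR7, 0.67 and 0.72 in CCR7-PDPN and 0.68 in X2-PDPN, all past the adjusted p and short of the fold threshold. Col16a1 did not pass the adjusted p between CCR7-PDPN and CCR7 (0.0028 ± 0.038) or between CCR7-PDPN and X2-PDPN (0.041 ± 0.029). Col20a1 rested on 5 to 24 reads per library, and its rise in CCR7-PDPN against X2-PDPN (1.19 ± 0.34, edgeR adjusted p = 0.0022) came with overlapping libraries.

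Col3a1 was the fibrillar collagen with the largest rise. It encodes the only chain of type III collagen, a homotrimer of extensible tissues, and lies on chromosome 1 of GRCm38, 45311538 to 45349706, on the plus strand. Batch 1 gave 1.99, 1.80, 2.09 and 1.76 TPM in X2, 8.11, 7.37, 7.23 and 7.46 TPM in CCR7 and 9.90, 10.5, 9.74 and 8.98 TPM in CCR7-PDPN. Batch 2 gave 1.74, 1.82, 1.78 and 2.04 TPM in X2, 10.4, 10.4, 10.9 and 11.5 TPM in X2-PDPN and 9.82, 10.3, 10.2 and 9.77 TPM in CCR7-PDPN. All libraries of the other derivatives were above all X2 libraries of their batch, and CCR7-PDPN was slightly above CCR7.
Col3a1 rose 3.93-fold in CCR7 against X2 (log2 fold change 1.97 ± 0.073, edgeR adjusted p = 2.4e-15) and 5.82-fold in X2-PDPN against X2 (2.54 ± 0.064, edgeR adjusted p = 6.0e-32). CCR7-PDPN was 5.18-fold and 5.51-fold above X2 in batch 1 and batch 2, 0.40 ± 0.058 on the log2 scale above CCR7 (edgeR adjusted p = 1.3e-05, under the fold threshold), and its difference from X2-PDPN of -0.077 ± 0.048 had edgeR adjusted p = 0.16.
Col1a1, the main chain of type I collagen (chromosome 11 of GRCm38, 94936224 to 94953042), rose only in X2-PDPN among the 6 comparisons. Batch 1 gave 0.835, 1.12, 1.14 and 0.992 TPM in X2, 0.971, 0.660, 0.843 and 1.04 TPM in CCR7 and 0.750, 0.814, 0.736 and 0.942 TPM in CCR7-PDPN, which overlapped. Batch 2 gave 1.19, 1.41, 1.20 and 0.954 TPM in X2, 3.65, 2.96, 2.93 and 2.77 TPM in X2-PDPN and 0.965, 0.922, 1.00 and 0.944 TPM in CCR7-PDPN, with X2-PDPN clear of both. Its log2 fold change in X2-PDPN against X2 was 1.37 ± 0.12 (edgeR adjusted p = 5.1e-13), and CCR7-PDPN was 3.15-fold below X2-PDPN (-1.66 ± 0.13, edgeR adjusted p = 3.9e-15).
The gene for its partner chain, Col1a2, had at most 2 reads in any library of batch 1, which held no X2-PDPN library. The ratio of Col3a1 to Col1a1 TPM was 1.90 ± 0.34 for X2, 8.82 ± 1.7 for CCR7 and 12.2 ± 1.8 for CCR7-PDPN of batch 1. In batch 2 it was 1.59 ± 0.37 for X2, 3.56 ± 0.53 for X2-PDPN and 10.5 ± 0.49 for CCR7-PDPN. Beside the Col1a1 rise, Pi16, a marker of a fibroblast subset, was at 2.17 TPM in X2-PDPN and 0.659 TPM in X2 (log2 fold change 1.73 ± 0.17, edgeR adjusted p = 9.5e-12), 1 of the 3 fibroblast markers that could be tested. Of these 3, 2 were higher and 1 was lower past the adjusted p in that comparison, and only Pi16 was called. The fibroblast list summed to 108 TPM on average in X2-PDPN and 107 TPM in X2 of batch 2. Dcn, Lum and Postn had at most 3 reads in any library of batch 1, which held no X2-PDPN library, so these counts do not cover that derivative. Pi16 fell in CCR7-PDPN against X2-PDPN (-1.68 ± 0.17, edgeR adjusted p = 1.5e-11), as Col1a1 did, and the part of fibroblast-like cells in the Col1a1 values was not tested.

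Among the minor fibrillar chains, Col24a1 and Col11a2 split between the derivatives. Col24a1, a chain of type XXIV collagen of developing bone and cornea (chromosome 3 of GRCm38, 145292472 to 145552011), gave 0.890, 0.778, 0.686 and 0.771 TPM in X2, 2.71, 2.38, 2.10 and 2.33 TPM in CCR7 and 0.969, 1.03, 1.59 and 1.46 TPM in CCR7-PDPN of batch 1. The libraries of batch 2 gave 0.848, 0.625, 0.935 and 0.918 TPM in X2, 1.73, 1.98, 2.44 and 2.28 TPM in X2-PDPN and 1.24, 1.29, 1.34 and 1.15 TPM in CCR7-PDPN. The 3 derivatives of each batch did not overlap, and CCR7-PDPN lay between X2 and the other derivative in both.
Col24a1 rose 3.04-fold in CCR7 (1.61 ± 0.16 on the log2 scale, edgeR adjusted p = 2.0e-08) and 2.50-fold in X2-PDPN (1.32 ± 0.14, edgeR adjusted p = 2.6e-11). It was lower by less than the fold threshold in CCR7-PDPN than in CCR7 (-0.90 ± 0.14) and than in X2-PDPN (-0.71 ± 0.13). Without CCR7-PDPN library 3 of batch 1 the first of these was -1.02 (edgeR adjusted p = 2.6e-05) and would count as a fall.
Col11a2, a chain of the cartilage collagen XI (chromosome 17 of GRCm38, 34039437 to 34066685), gave 0.892, 1.66, 1.16 and 1.41 TPM in X2, 2.98, 1.72, 2.12 and 2.04 TPM in CCR7 and 3.34, 2.78, 3.70 and 2.88 TPM in CCR7-PDPN of batch 1. Batch 2 gave 1.34, 1.68, 1.05 and 1.57 TPM in X2, 1.27, 1.61, 1.39 and 1.26 TPM in X2-PDPN and 3.31, 3.52, 3.85 and 3.55 TPM in CCR7-PDPN. CCR7-PDPN was above X2 in every library of both batches, whereas X2-PDPN overlapped X2. Col11a2 rose 2.54-fold and 2.57-fold in CCR7-PDPN against X2 of batch 1 and batch 2 (log2 fold changes 1.35 ± 0.18 and 1.36 ± 0.12, edgeR adjusted p = 7.6e-06 and 4.7e-14). The difference between X2-PDPN and X2 was -0.019 ± 0.13 (edgeR adjusted p = 0.92). Its usual partner Col11a1 had at most 4 reads in any library of batch 1.

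The type V chains were the abundant fibrillar transcripts, and Col5a3 went its own way. Col5a3 (chromosome 9 of GRCm38, 20770050 to 20815067) gave 58.9, 59.0, 59.6 and 59.2 TPM in X2, 76.2, 70.6, 67.7 and 68.3 TPM in CCR7 and 74.2, 73.9, 73.7 and 69.7 TPM in CCR7-PDPN of batch 1. In batch 2 it gave 57.0, 58.5, 59.5 and 59.3 TPM in X2, 45.0, 46.2, 44.7 and 45.5 TPM in X2-PDPN and 75.5, 74.9, 73.5 and 69.6 TPM in CCR7-PDPN. All X2-PDPN libraries were below, and all CCR7 and CCR7-PDPN libraries above, the X2 libraries of their batch. The log2 fold changes against X2 were -0.37 ± 0.031 in X2-PDPN, 0.26 ± 0.037 in CCR7, and 0.32 ± 0.037 and 0.34 ± 0.03 in CCR7-PDPN. The widest gap, CCR7-PDPN over X2-PDPN, was 0.72 ± 0.031 (edgeR adjusted p = 2.5e-24), and none of these passed the fold threshold.
Col5a1, the chain common to all forms of type V collagen, was higher than in X2 in each of the other derivatives, with log2 fold changes of 0.31 in CCR7, 0.47 and 0.52 in CCR7-PDPN and 0.57 in X2-PDPN, under the fold threshold. The ratio of Col5a3 to Col5a1 TPM was 0.310 ± 0.0099 (SD, n = 4) for X2, 0.161 ± 0.0071 for X2-PDPN and 0.274 ± 0.0043 for CCR7-PDPN of batch 2, and 0.303 ± 0.0095, 0.293 ± 0.0092 and 0.274 ± 0.0078 in X2, CCR7 and CCR7-PDPN of batch 1. Col5a2, the chain that most type V trimers contain, had at most 4 reads in any library of batch 1. Col2a1, the cartilage fibril chain, had group means of 3.25 to 4.48 TPM, and Col27a1 of 0.115 to 0.218 TPM, and neither passed both thresholds in any of the 6 comparisons.

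The type IV chains Col4a1 and Col4a2 form the basement membrane trimer, and their genes start back to back on chromosome 8, with 22 bases shared by the annotated starts. Col4a1 (11198423 to 11312826, minus strand) gave 370.5, 364, 374 and 372 TPM in X2, 269, 283, 269.7 and 280.1 TPM in CCR7 and 293, 289, 285 and 258 TPM in CCR7-PDPN of batch 1. Batch 2 gave 355, 363, 372 and 375 TPM in X2, 453, 426, 449 and 449 TPM in X2-PDPN and 289.7, 293, 283 and 269.7 TPM in CCR7-PDPN. Derivatives with Ccr7 were below X2, and X2-PDPN was above it, in every library. Other genes around it on the chromosome were also lower in the Ccr7-transduced cells. The 38 tested genes within 5 Mb of Col4a1, collagens left out, had a median log2 fold change of -0.53 in CCR7 against X2, and 26 of them were below Col4a1.
Relative to X2, Col4a1 stood at -0.43 ± 0.032 on the log2 scale in CCR7, at -0.37 ± 0.032 and -0.35 ± 0.027 in CCR7-PDPN and at 0.27 ± 0.027 in X2-PDPN (edgeR adjusted p = 2.8e-10, 1.7e-09, 2.5e-15 and 5.2e-12). CCR7-PDPN was -0.62 ± 0.027 from X2-PDPN (edgeR adjusted p = 4.2e-24). All these were under the fold threshold, and the difference between CCR7-PDPN and CCR7 of 0.057 ± 0.032 did not pass the adjusted p either.
Col4a2 did not share the lower level of the Ccr7-transduced cells. It was 174 ± 3.1 TPM (SD, n = 4) for X2, 199 ± 5.5 for CCR7 and 194 ± 8.9 for CCR7-PDPN of batch 1, and 170.5 ± 4.0 for X2, 214 ± 3.6 for X2-PDPN and 195 ± 9.5 for CCR7-PDPN of batch 2. The ratio of Col4a1 to Col4a2 TPM was 2.13 ± 0.038 and 2.15 ± 0.050 in X2 of batch 1 and batch 2 and 2.08 ± 0.023 in X2-PDPN. It was 1.39 ± 0.030 in CCR7, and 1.45 ± 0.018 and 1.46 ± 0.038 in CCR7-PDPN. The ratio lay between 1.35 and 1.50 in all 12 libraries of Ccr7-transduced cells and was at least 2.05 in the 12 libraries of vector control cells. No test was run on the ratios, which compare genes of different length in the same library.

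**Figure D3:**
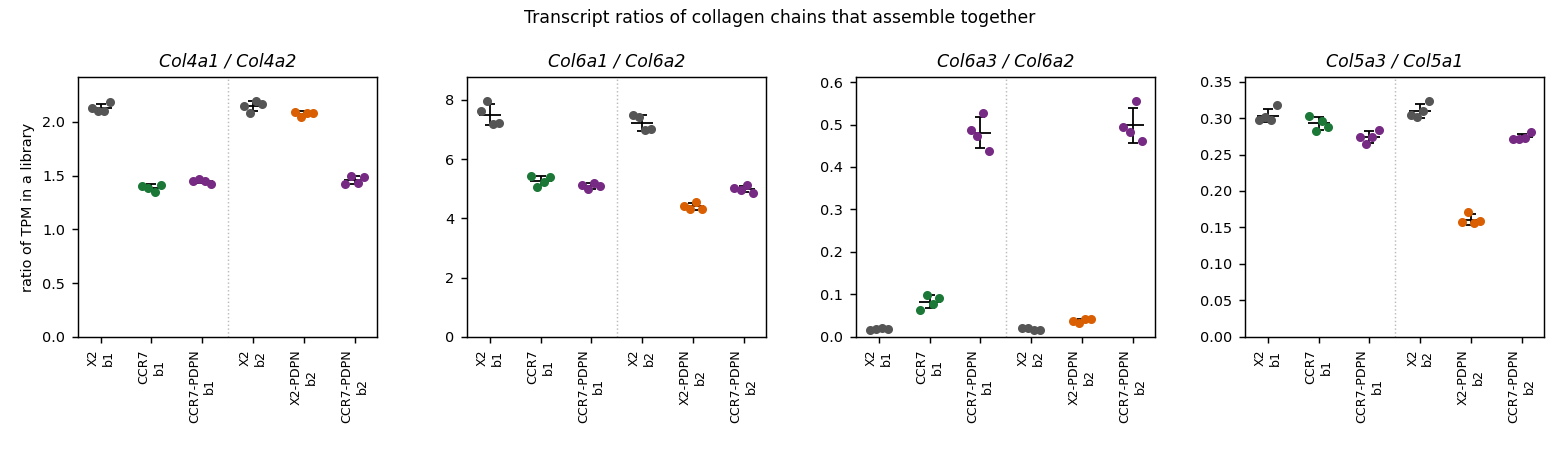
Ratio of TPM (vertical axes, linear from 0) of 4 pairs of collagen chains in each library, with the group mean and SD (n = 4), for the 6 groups ordered by batch (b1 and b2). Col4a1 to Col4a2 lies between 1.35 and 1.50 in the Ccr7-transduced groups, Col6a3 to Col6a2 is highest in CCR7-PDPN, and Col5a3 to Col5a1 is lowest in X2-PDPN (0.156 to 0.171).

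Col15a1 was the collagen that fell most. It encodes a basement membrane-zone collagen of the multiplexin group and lies on chromosome 4 of GRCm38, 47208161 to 47313167, on the plus strand. Raw counts are given because they are low. In batch 1 the libraries held 64, 37, 52 and 67 reads in X2, 11, 5, 5 and 11 reads in CCR7 and 2, 1, 4 and 0 reads in CCR7-PDPN. In batch 2 they held 54, 76, 49 and 68 reads in X2, 68, 76, 58 and 40 reads in X2-PDPN and 0, 1, 0 and 1 reads in CCR7-PDPN. X2 and X2-PDPN overlapped, and the Ccr7-transduced derivatives were below X2 in every library.
Summed over libraries, Col15a1 CPM was 7.13-fold higher in X2 than in CCR7 (95% exact interval 4.91 to 10.7, 220 against 32 reads) and 34.1-fold higher in X2 than in CCR7-PDPN of batch 1 (16.3 to 85.7, 220 against 7 reads). In batch 2 the ratio of X2 to CCR7-PDPN was 122 (33.4 to 1011, 247 against 2 reads), and that of X2-PDPN to CCR7-PDPN 112 (30.6 to 928, 242 against 2 reads). These intervals cover counting error only. The edgeR adjusted p was 1.3e-07 in CCR7 against X2, 9.7e-10 and 9.1e-18 in CCR7-PDPN against X2, 0.0072 in CCR7-PDPN against CCR7 (32 against 7 reads in CCR7 and CCR7-PDPN), and 0.56 in X2-PDPN against X2. The test of CCR7-PDPN against CCR7 was possible with the X2 libraries in the fit, and not with those 2 groups alone.
Col18a1, the other multiplexin and the source of endostatin, was abundant and took a different order. It was 125 ± 1.8 TPM (SD, n = 4) for X2, 106 ± 1.8 for CCR7 and 167 ± 1.7 for CCR7-PDPN of batch 1, and 122 ± 2.2 for X2, 228 ± 4.3 for X2-PDPN and 170.1 ± 3.0 for CCR7-PDPN of batch 2. Each podoplanin-high derivative was above its podoplanin-low counterpart in every library, by 0.69 ± 0.027 on the log2 scale in CCR7-PDPN against CCR7 and 0.89 ± 0.027 in X2-PDPN against X2 (edgeR adjusted p = 3.9e-14 and 2.1e-29), under the fold threshold. Col7a1, the anchoring fibril chain, had group means of 11.6 to 18.7 TPM and did not pass both thresholds in any of the 6 comparisons.
Of the transmembrane collagens, Col13a1 fell in both podoplanin-high derivatives. It held 16, 17, 21 and 22 reads in X2, 25, 24, 26 and 26 for CCR7 and 3, 3, 3 and 4 for CCR7-PDPN of batch 1, and 21, 22, 25 and 27 for X2, 6, 12, 11 and 6 for X2-PDPN and 4, 7, 4 and 7 for CCR7-PDPN of batch 2. The podoplanin-high libraries did not overlap with the other libraries of their batch. The log2 fold change was -2.97 ± 0.31 in CCR7-PDPN against CCR7 and -1.51 ± 0.29 in X2-PDPN against X2 (edgeR adjusted p = 1.9e-07 and 1.9e-05), on 3 to 27 reads per library. Col17a1, a hemidesmosome collagen of epithelia, was at 1.00 ± 0.12 TPM in X2-PDPN and 0.574 ± 0.18 in X2 (log2 fold change 0.78 ± 0.20, edgeR adjusted p = 0.0011), under the fold threshold.

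The design allows the difference that comes with podoplanin to be compared between Ccr7-transduced and vector control cells, by subtracting the log2 fold change of X2-PDPN against X2 from that of CCR7-PDPN against CCR7. Batch was a term in this fit over all 24 libraries, since X2 and CCR7-PDPN were measured in both batches, while CCR7 and X2-PDPN were each measured in 1. The fit pools X2 and CCR7-PDPN over the batches, so its values are not exactly the subtraction of the within-batch fold changes. The 2 differences are not of the same kind, since CCR7 was sorted as podoplanin-negative and no such sort is described for X2, and an effect of that sort cannot be told apart from one of Ccr7. The result passed the adjusted p for 16 of the 22 collagens, against 46.4% of all 13690 genes tested, and it also exceeded 1 on the log2 scale for 7 of them, against 5.49%. All 7 were negative (4.53% of all genes were past both thresholds in that direction and 0.964% in the other), meaning a smaller or more negative podoplanin difference with Ccr7 than without.
Col9a1 had the largest value, -5.77 ± 0.17 (SE, edgeR adjusted p = 1.2e-26), followed by Col15a1 (-2.65 ± 0.57, edgeR adjusted p = 0.00018), Col24a1 (-2.27 ± 0.17, edgeR adjusted p = 2.4e-14) and Col3a1 (-2.09 ± 0.071, edgeR adjusted p = 1.1e-24). Col1a1 (-1.44 ± 0.18), Col13a1 (-1.15 ± 0.36) and Col6a2 (-1.14 ± 0.042) made up the rest. Col6a3, in contrast, had a podoplanin difference of 3.11 with Ccr7 and 2.77 without within the batches, and its value in the fit over all libraries, 0.36 ± 0.19, had edgeR adjusted p = 0.14. For Col11a2 (0.56 ± 0.19, edgeR adjusted p = 0.017) and Col5a3 (0.46 ± 0.04, edgeR adjusted p = 3.8e-12) the value was positive, under 1.

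**Figure D4:**
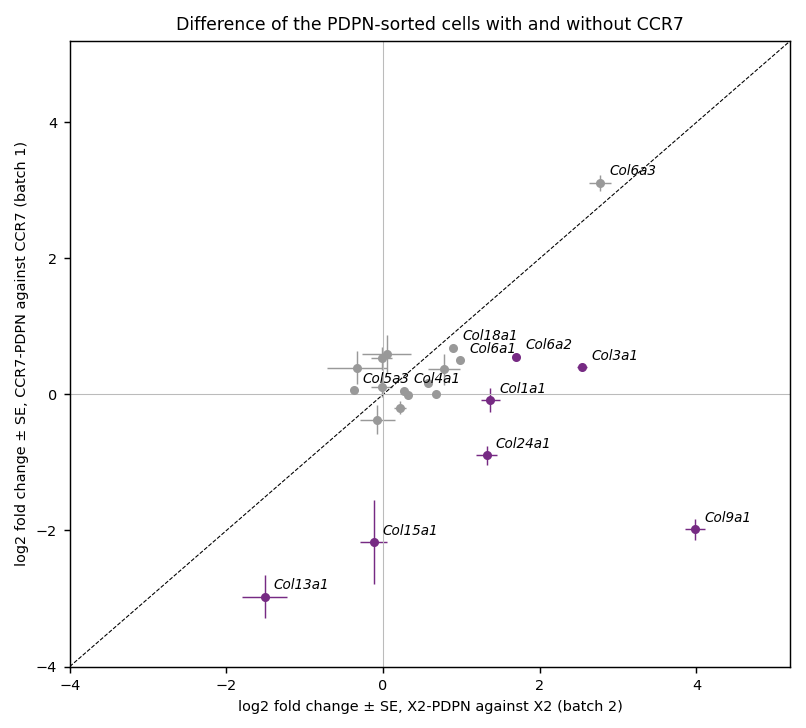
Log2 fold change of each of the 22 collagen genes in X2-PDPN against X2 (horizontal axis) and in CCR7-PDPN against CCR7 (vertical axis), with bars of 1 standard error from edgeR and the line of equal values dashed. Purple points passed both thresholds for the dependence on Ccr7 in the fit over all 24 libraries, whose values are not exactly the difference between the axes. Col6a3 lies close to the line at 2.77 and 3.11, and Col9a1 far below it at 3.98 and -1.98.

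CCR7-PDPN against X2 was measured in both batches, and the difference between the batches was tested. None of the 22 had an edgeR adjusted p under 0.05 for it, and 0% of all 13690 genes did. At an unadjusted p under 0.05 there were 0 collagens and 293 genes. DESeq2 also called 0 of 13915 genes. For Col6a3 the difference between batches was -0.026 ± 0.30 and for Col9a1 -0.39 ± 0.30.

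The reference lists 44 collagen genes that batch 1 covered, and 22 of these were not in the table of batch 2 and so were not members. Of these, 5 had no read in any library of batch 1 (Col4a5, Col4a6, Col10a1, Col19a1 and Col25a1), which allows up to 3 reads each, and 11 had at most 3 reads in any library. The other 6 reached at most 14 reads, the highest being Col23a1, a transmembrane collagen, with 34 reads over the 4 X2 libraries, 16 over CCR7 and 10 over CCR7-PDPN. Col12a1, a FACIT chain of dense connective tissue, had 21 reads over X2, 8 over CCR7 and none over CCR7-PDPN. Col1a2, Col5a2, Col9a2 and Col11a1, partners of Col1a1, Col5a1, Col9a1 and Col11a2, were thus at or near 0 in cells whose other chains were measured, and their values in X2-PDPN were not analysed here.

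The 2 collagen genes with the largest rises lie on chromosome 1 together with Col3a1, and the genes around each were read from the same fits. Within 5 Mb of Col6a3, 74 other tested genes had a median log2 fold change of 0.089 in CCR7-PDPN against X2 of batch 1 and 0.07 in X2-PDPN against X2. None was above Col6a3, and 8 and 3 of them passed both thresholds. Within 5 Mb of Col9a1, 13 genes had a median of -0.053 in CCR7 against X2, and 14 genes one of 0.00081 in X2-PDPN against X2, with none above Col9a1 in either. Around Col3a1, 18 genes had medians of -0.02 in CCR7 against X2 and -0.09 in X2-PDPN against X2. Around Col15a1, 63 genes showed, in CCR7-PDPN against X2 of batch 2, a median of -0.091, and none was below Col15a1. For Col4a1 the surrounding genes gave other values. Their median was -0.53 in CCR7 against X2, -0.60 and -0.57 in CCR7-PDPN against X2 of batch 1 and batch 2 and -0.50 in CCR7-PDPN against X2-PDPN, where Col4a1 itself stood at -0.43, -0.37, -0.35 and -0.62. In CCR7-PDPN against CCR7 and in X2-PDPN against X2 their median was -0.0071 and 0.017. The part of this chromosome segment in the Col4a1 values was not tested. Around the other 9 collagens with values in every library the medians lay between -0.24 (Col24a1, CCR7-PDPN against X2 of batch 1) and 0.16 (Col9a1 in the same comparison).
The collagen genes adjacent to Col3a1 and Col9a1 were hardly expressed. Col5a2 ends 24614 bases from the end of Col3a1 on the opposite strand and had at most 4 reads, and Col19a1 ends 9205 bases from the end of Col9a1 and had no read in batch 1. Col6a1 and Col6a2, both with higher levels in the podoplanin-high derivatives than in X2, lie 85161 bases apart on the same strand of chromosome 10.

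**Figure D5:**
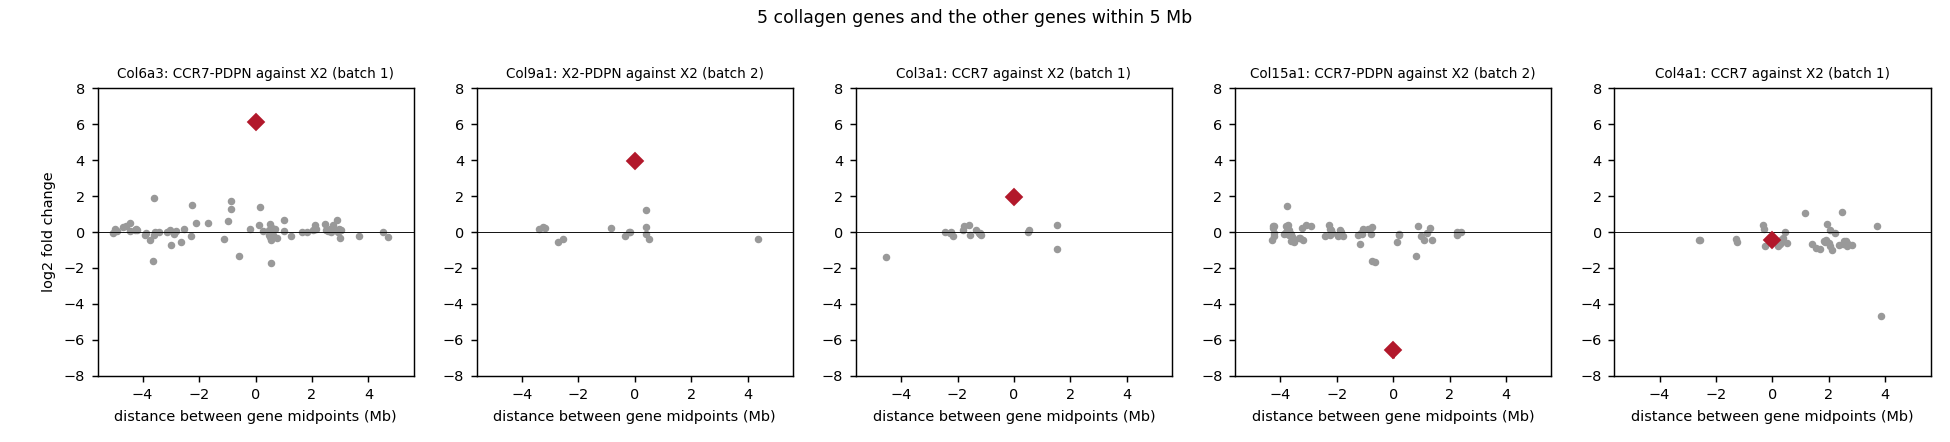
Log2 fold change (vertical axes) of 5 collagen genes (red diamonds, bars of 1 standard error from edgeR) and of the other tested genes within 5 Mb (grey points), by the distance between gene midpoints in Mb (horizontal axes), each in 1 comparison. Col6a3, Col9a1 and Col3a1 lie above, and Col15a1 below, all of their neighbours, whereas Col4a1 lies among its own.

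Other genes of collagen biology were read from lists of enzymes and chaperones, receptors, proteases and fibril-associated proteins. For scale, 3.27% (CCR7-PDPN against CCR7) to 9.63% (CCR7-PDPN against X2 of batch 2) of all genes tested moved in either direction. The shares by direction are given above with the collagen calls, and no set test was run on the lists. Of 33 processing enzymes and chaperones, 26 could be tested in batch 2 and 25 in batch 1. In CCR7 against X2, 1 of 25 fell and none rose, and in X2-PDPN against X2, 1 of 26 rose and none fell. CCR7-PDPN against X2 had 1 fall in batch 1, and 1 rise and 3 falls in batch 2, with no call against CCR7 and 3 falls against X2-PDPN. The gene that fell in CCR7 was Loxl2, a lysyl oxidase that starts the cross-linking of collagens, from 26.8 TPM for X2 to 0.0481 for CCR7 (log2 fold change -9.05 ± 0.14, edgeR adjusted p = 2.2e-21). It was at 0.0799 TPM in CCR7-PDPN of batch 1, and in batch 2 at 26.7 TPM in X2, against 30.9 for X2-PDPN and 0.0918 for CCR7-PDPN. P4ha3, a prolyl hydroxylase subunit that stabilises the helix, was the 1 that rose in X2-PDPN (1.34 ± 0.31, edgeR adjusted p = 0.00033), and it fell in CCR7-PDPN against X2-PDPN (-4.11 ± 0.49, edgeR adjusted p = 8.7e-10). Crtap, a partner of prolyl 3-hydroxylase, rose in CCR7-PDPN against X2 of batch 2 (1.00 ± 0.037) and just missed the fold threshold in batch 1 (0.99 ± 0.039). Serpinh1, the collagen chaperone, was the most abundant of the list, with group means of 1492 to 1783 TPM and no call.
Of 13 collagen receptors, 8 could be tested in batch 1 and 9 in batch 2. In CCR7 against X2, 1 rose, and in CCR7-PDPN against CCR7 none was called. In X2-PDPN against X2, 3 rose, CCR7-PDPN against X2 had 1 rise and 1 fall in each batch, and CCR7-PDPN against X2-PDPN had 1 rise and 3 falls. Mrc2, the endocytic receptor that takes up collagen fragments, rose in each derivative against X2, by 3.54 ± 0.24 in CCR7, 4.40 ± 0.21 and 4.22 ± 0.22 in CCR7-PDPN and 1.53 ± 0.32 in X2-PDPN, and it also rose in CCR7-PDPN against X2-PDPN (2.69 ± 0.17, edgeR adjusted p = 9.0e-18). Its level stayed low, at 0.115 TPM in X2 and 2.41 TPM in CCR7-PDPN of batch 1. Itga1, an integrin chain that binds type IV and other collagens, fell in CCR7-PDPN against X2 (-1.22 ± 0.068 in batch 1 and -1.24 ± 0.05 in batch 2), and Antxr1, a receptor for type VI and type I collagen, rose in X2-PDPN (3.16 ± 0.28, edgeR adjusted p = 3.1e-13).
Of 13 collagen-cleaving proteases, 6 could be tested, and Mmp2, a gelatinase that cleaves type IV collagen, was the 1 called in each comparison. It fell from 1.26 TPM for X2 to 0.427 for CCR7 and 0.0188 for CCR7-PDPN of batch 1, and from 1.53 to 0.337 for X2-PDPN and 0.0812 for CCR7-PDPN of batch 2. Of 14 fibril-associated proteins, 4 or 5 could be tested, and 7 (Dcn, Fmod, Fn1, Kera, Lum, Ogn and Thbs1) had at most 3 reads in any library of batch 1. No call was made in CCR7 against X2, and 1 fell in CCR7-PDPN against CCR7 and against X2 of batch 1, 1 rose in X2-PDPN against X2, and 2 fell in CCR7-PDPN against X2 of batch 2 and against X2-PDPN. Thbs2, a matricellular protein that shapes fibrils, fell in CCR7-PDPN against CCR7 (-4.47 ± 0.25, edgeR adjusted p = 1.7e-11), and Prelp, a small proteoglycan that binds fibrils, rose in X2-PDPN against X2, from 0.567 to 3.11 TPM (2.44 ± 0.20, edgeR adjusted p = 9.2e-14). Prelp had no read in the 4 CCR7-PDPN libraries of batch 2. Sparc, a collagen-binding protein and the most abundant of this list, brought its summed level to 732 to 742 TPM in X2 and 1075 to 1110.0 TPM in CCR7, without a call.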

How the data were processed

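RNA from 24 cultured EO771 samples was sequenced as stranded poly(A) libraries with single-end reads in 2 batches of 12, and the submitters' processing notes name GRCm38/mm10. The authors deposited raw counts per Ensembl gene in 1 table per batch. The batch 1 table covers 55471 genes in the format of featureCounts. The batch 2 table holds 13915 genes, all also in batch 1, and the rule that removed the others is not given in the sources used here. The aligner is not given in them either.

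The counts were tested as deposited with edgeR 4.0.16 in R 4.3.3 (TMM factors of 0.986 to 1.017, filterByExpr with a minimum count of 10, robust quasi-likelihood F test), the 3 groups of a batch in 1 fit, with Benjamini-Hochberg adjustment over all genes tested. A call needed an adjusted p under 0.05 together with a log2 fold change beyond 1 in either direction. A fit over all 24 libraries with batch as a term gave the dependence of the podoplanin difference on Ccr7. TPM used the gene lengths of the tables and the 13915 genes of both, which hold at least 99.94% of the counts of every library. Totals of 22275468 to 35721027 counts set the precision. Intervals and floors cover counting error only. The test was tried on simulated counts. Within a group no library was a copy of another: the chi-square per degree of freedom was 2.07 to 22.7 over 36 pairs. Libraries of different groups or batches were not compared in this way, so copies among them were not tested for. The highest values, 22.7, 17.8 and 13.6, were those of CCR7 library 1 with the other CCR7 libraries, so this library stood apart from its group. Coordinates are from GENCODE M21.

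Values in every library are given for Col6a3, Col9a1, Col3a1, Col4a1, Col5a3 and Col6a2 and for each other collagen called in any comparison with a mean of at least 1 CPM in some group (Col13a1 was added after its values were seen). At most 4 called genes per list are named, with the most abundant member beside them. The members and the lists were chosen with earlier results of these data known. Alternatives were DESeq2 1.42.0, DESeq2 size factors in edgeR, no filter or at least 1 CPM in 4 libraries, the replicate number as a block, other sets of samples in the fit, no fold threshold and leaving out each library.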

Additional observations from a re-analysis of the deposited data

Results flagged for a closer look

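Of 60 groups of 4 libraries examined (10 collagens in 6 groups), 2 had a library apart from the other 3 by Dixon's ratio, where chance gives about 1 in 20. The highest CCR7 library of Col3a1 stood at 21.5 CPM, and the lowest CCR7-PDPN library of Col5a3 in batch 1 at 128 CPM. Leaving out either library changed no call of a collagen.

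The podoplanin difference with Ccr7 minus that without, tested in 1 edgeR fit with batch as a term, was past an adjusted p of 0.05 for 9 of the 10 collagens. It was past it for 16 of all 22 collagens and for 46.4% of all 13690 genes tested. Some of the 10 were taken because they were called in these same comparisons, so their count is not evidence about the family. The value was -5.77 for Col9a1, -2.65 for Col15a1, -2.27 for Col24a1, -2.09 for Col3a1, -1.44 for Col1a1, -1.14 for Col6a2 and -0.20 for Col4a1 on the log2 scale, and 0.46 for Col5a3 and 0.56 for Col11a2. CCR7 was measured in batch 1 alone and X2-PDPN in batch 2 alone, so an effect of batch that acted on 1 of these derivatives and not on X2 or CCR7-PDPN cannot be told apart from this difference, nor can the sort of CCR7 for podoplanin-negative cells.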

How the results depend on the processing

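With no fold threshold the collagens called numbered 16 in CCR7 against X2, 11 in CCR7-PDPN against CCR7, 17 in CCR7-PDPN against X2 of batch 1, 16 in X2-PDPN against X2, 18 in CCR7-PDPN against X2 of batch 2 and 16 in CCR7-PDPN against X2-PDPN. Under the other settings these counts were 5, 3 to 5, 5 to 7, 6 to 8, 5 to 7 and 5 to 8. Calls were lost in 6 cases because the gene was no longer tested (Col13a1 in 4 comparisons and Col20a1 in 1 with at least 1 CPM in 4 libraries, and Col15a1 in CCR7-PDPN against CCR7 with only the 2 groups in the fit). Leaving out 1 library added 9 calls in 4 genes, all just past the fold threshold. These were Col20a1 in CCR7-PDPN against X2 (1.02 without CCR7-PDPN library 1 or 1.01 without X2 library 1 of batch 1, and 1.01 without CCR7-PDPN library 4 or X2 library 2 of batch 2), Col24a1 (-1.02, described above), Col17a1 in CCR7-PDPN against X2-PDPN (-1.04 without CCR7-PDPN library 2, -1.02 without X2-PDPN library 2) and in X2-PDPN against X2 (1.00 without X2 library 4), and Col27a1 in CCR7-PDPN against X2-PDPN (1.04 without X2-PDPN library 2).

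The replicate block gave 5, 4, 6, 7, 6 and 6 collagens called, 16 with an adjusted p under 0.05 for the dependence on Ccr7 and 0 that differed between batches, and it changed no call. Of 24 pairs of libraries with the same number, 5 had deviations from the group means correlated above 0.1 (-0.260 to 0.262) and 8 matched their own number best, so the numbers were not read as pairs.

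Leaving out each library in turn moved the sign of differences that had not passed the adjusted p. In X2-PDPN against X2, Col11a2 ranged from -0.15 to 0.069 and Col15a1 from -0.24 to 0.0056. For the difference between batches of CCR7-PDPN against X2, the ranges were -0.083 to 0.060 for Col6a3, -0.046 to 0.010 for Col4a1, -0.041 to 0.00011 for Col5a3, -0.016 to 0.030 for Col6a2, -0.14 to 0.12 for Col11a2, -0.11 to 0.077 for Col1a1 and -0.024 to 0.21 for Col24a1.

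Sums by class lean on 1 gene each. Without Col6a1 the ratio of the family's sum to X2 was 1.08 in CCR7, 1.21 in CCR7-PDPN of batch 1, 1.44 in X2-PDPN and 1.24 in CCR7-PDPN of batch 2, and that of type VI 1.87, 3.70, 3.32 and 3.74. Without Col4a1 the type IV ratio turned to 1.14 in CCR7 and 1.12 and 1.14 in CCR7-PDPN. Without Col16a1 the FACIT ratio was 2.38 in CCR7, 1.06 and 1.24 in CCR7-PDPN and 5.49 in X2-PDPN. Without Col5a1 the fibrillar ratio in X2-PDPN turned to 0.983. In CPM in place of TPM, X2-PDPN had ratios of 1.50 for the family, 2.25 for type VI and 1.64 for FACIT, CCR7-PDPN 2.23 and 2.27 for type VI, and CCR7 0.847 for type IV. Within 1 Mb the median of neighbouring genes was 0.13 for Col9a1 in CCR7-PDPN against CCR7, 0.20 for Col6a2 in X2-PDPN against X2 and -0.074 in CCR7-PDPN against X2-PDPN, -0.19 for Col15a1 in CCR7 and in CCR7-PDPN of batch 1 against X2 and -0.18 in X2-PDPN against X2, -0.094 for Col1a1 in CCR7-PDPN against X2-PDPN, and for Col4a1 -0.36 and -0.41 in CCR7-PDPN of batch 1 and batch 2 against X2 and 0.14 in X2-PDPN against X2. Within 10 Mb it was -0.26 for Col4a1 in CCR7 against X2, -0.12 in CCR7-PDPN against CCR7 and -0.49 and -0.46 in CCR7-PDPN against X2, and -0.0072 for Col9a1 in CCR7-PDPN against X2 of batch 1.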
